A study of Mus musculus with 6 samples.

Results

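The SLC25 family was followed in the hearts of mice that carry extra DNA methyltransferases. Its members were taken as every probe set whose platform annotation gives a single symbol of Slc25a followed by a number. That rule found 93 probe sets of 44 genes, among 45101 probe sets in the deposited table and 18193 genes with a symbol of their own. The rule uses symbols only, and the family was picked for description with earlier results of these data known. Whole hearts of 8-week-old mice were profiled on Affymetrix arrays, 1 array per mouse, with 3 DNMTs-Tg mice (replicates 1, 5 and 6) and 3 wild-type mice (replicates 1, 4 and 6). DNMTs-Tg mice express DNMT3A2, a short isoform of the de novo methyltransferase DNMT3A, together with DNMT3L, a partner without catalytic activity, in a broad range of body cells. Per the labels' protocols they came from a female that carries Cre under the germ cell gene Ddx4 and a floxed male. The sources used here give neither the promoter that drives the transgenes nor the strain of the wild-type mice, and no treatment is labelled for either group. By label 5 of the mice were female, and the male was wild-type replicate 6. The study asked which heart genes lose expression under the ectopic enzymes, and DNA methylation itself was not analysed here.

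SLC25 proteins are carriers of the inner mitochondrial membrane, built from repeated pairs of membrane-spanning helices around a central binding site. They exchange ADP for ATP, bring in phosphate, and pass carboxylates, amino acids, acylcarnitines, nucleotides, cofactors and iron between the cytosol and the matrix. In heart muscle the ADP/ATP and phosphate carriers serve oxidative ATP supply, the carnitine-acylcarnitine carrier serves fatty acid oxidation, and the oxoglutarate and aspartate-glutamate carriers form the malate-aspartate shuttle, which moves reducing equivalents of NADH into the matrix.

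All values are log2 signals as deposited, and a difference is always DNMTs-Tg minus wild-type. Probe sets were retained if their signal exceeded the array's own 40th percentile in 3 or more of the 6 hearts, and the brightest retained probe set stood for its gene. That left 13634 genes for the test. The labels do not say whether the mice of a group were littermates, so p-values measure the spread between these samples. The transgene Dnmt3l separated the groups, at 12.19 to 12.38 in DNMTs-Tg and 5.17 to 5.48 in wild-type hearts. The array medians were 5.28 to 5.33. DNMTs-Tg replicate 1 stood apart, with a score of -52.96 on the first principal component (64% of the variance) against -21.07 and -4.34 for replicates 5 and 6 and 24.58 to 27.82 for wild-type. It also had the highest fibroblast marker value, 0.95 above the wild-type mean (5 of 5 markers measured), and the highest macrophage marker value, 1.26 above it (6 of 6 measured). Xist and the Y-linked gene Eif2s3y did not match the labelled sex on 4 arrays, the 3 of DNMTs-Tg and that of wild-type replicate 1, and only wild-type replicate 4 had the female pattern. The 7 cardiomyocyte markers were bright on every array, with summed levels of 16.85 to 17.08 in DNMTs-Tg and 17.14 to 17.16 in wild-type. In bulk tissue, fewer cells of a type and less RNA per cell cannot be told apart.

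Of the 44 genes, 40 had a kept probe set. Slc25a10, a dicarboxylate carrier, rose in DNMTs-Tg hearts, while the oxoglutarate carrier Slc25a11 and the orphan carrier Slc25a34 fell. These 3 of 40 genes (7.5%) passed the threshold (limma, adjusted p under 0.05 over all genes tested). Over all genes tested the share was 5.39%, with 2.24% higher and 3.15% lower, so the family's share lay near the background. The differences of the 40 genes ran from -1.17 to 0.65, with 20 above 0 and 20 below. Their median was -0.01, beside 0.0055 over all genes, where 49.2% lay below 0. Groups did not overlap for 13 members (32.5%), 4 higher and 9 lower, against 34.9% of all genes (17.3% higher and 17.6% lower). An unadjusted p under 0.05 was seen for 8 members (20%), against 26% of all genes.

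**Figure D1:**
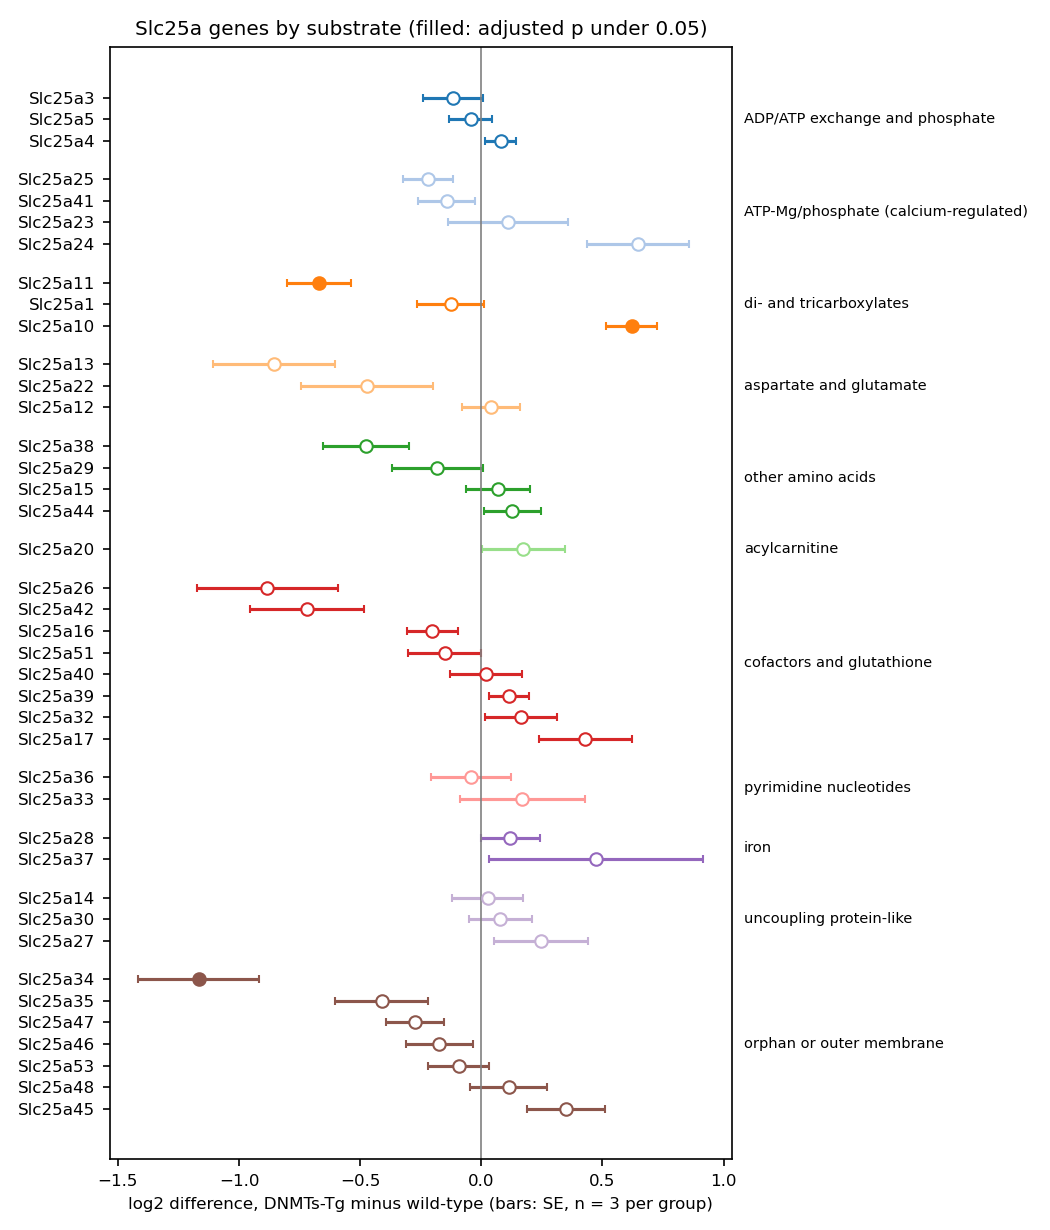
Log2 difference of the 40 measured Slc25a genes, DNMTs-Tg minus wild-type, with the SE as bars (n = 3 per group), arranged by transported substrate, and with filled circles for adjusted p under 0.05. The filled circles are Slc25a10 at 0.62, Slc25a11 at -0.67 and Slc25a34 at -1.17, and most other genes lie close to 0.

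The remaining 4 genes stayed at the dim end of the arrays. They were Slc25a2, an ornithine carrier (2.98 to 3.25), Slc25a18, a glutamate carrier (4.13 to 4.84), Slc25a31, the ADP/ATP carrier of germ cells (2.30 to 3.34), and Slc25a54 (3.38 to 3.89). The 40th percentile lay at 4.64 to 4.72 on the 6 arrays. The single value above its array's percentile was that of Slc25a18 in wild-type replicate 4. Whether these genes were above background is unknown, because no detection calls were used.

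The dicarboxylate and tricarboxylate carriers split in direction. Slc25a10, which exchanges malate and succinate for phosphate, stood at 7.78, 7.68 and 7.61 in DNMTs-Tg replicates 1, 5 and 6. In wild-type replicates 1, 4 and 6 it stood at 7.04, 7.08 and 7.09. Every DNMTs-Tg heart lay above every wild-type heart, and both groups were tight. The difference was 0.62 ± 0.10 (SE, n = 3 per group), a 1.54-fold rise (limma, adjusted p = 0.0219, 95% interval 0.38 to 0.86). A second, dimmer probe set of Slc25a10 differed by 0.14 (adjusted p = 0.627 among all probe sets), and with the mean of both the gene did not pass (0.38, adjusted p = 0.0691). Slc25a10 is abundant in fat. The adipocyte genes Adipoq, Cidec and Lep had no kept probe set. Adipoq stood at 2.96 to 3.54 in DNMTs-Tg and 4.00 to 5.60 in wild-type hearts, and Cidec (-0.10) and Lep (-0.12) had overlapping groups. Of 3 brown fat markers 2 were measured, with a summed level of 9.31 to 10.48 in DNMTs-Tg and 9.37 to 9.77 in wild-type. Cidea stood at 10.45, 9.82 and 9.23 in DNMTs-Tg replicates 1, 5 and 6 and at 9.28 to 9.72 in wild-type hearts (0.30, adjusted p = 0.553), and Elovl3 differed by -0.04. Ucp1, the defining brown fat gene, had no kept probe set and stood at 3.19 to 4.27 in DNMTs-Tg and 3.79 to 4.00 in wild-type. The part of fat cells in the Slc25a10 values was not tested.

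Slc25a11 exports oxoglutarate in exchange for malate. It read 10.79, 11.16 and 11.25 in DNMTs-Tg replicates 1, 5 and 6, and 11.72, 11.73 and 11.76 in wild-type replicates 1, 4 and 6. The wild-type hearts lay within 0.04 of each other, and all DNMTs-Tg hearts lay below them. The difference was -0.67 ± 0.13 (SE, n = 3 per group; limma, adjusted p = 0.0343), a 1.59-fold fall. Without DNMTs-Tg replicate 1 it was -0.53. Slc25a1, which exports citrate for cytosolic lipid synthesis, differed by -0.13 (adjusted p = 0.595, 95% interval -0.45 to 0.20), and its groups overlapped.

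Slc25a34 has no established substrate and showed the widest difference of the family. It read 9.24, 10.05 and 10.27 in DNMTs-Tg replicates 1, 5 and 6, and 11.05, 11.06 and 10.94 in wild-type replicates 1, 4 and 6. DNMTs-Tg replicate 1 was the lowest, and the groups did not overlap. The difference was -1.17 ± 0.25 (SE, n = 3 per group; limma, adjusted p = 0.0454), a 2.24-fold fall. It lay just past the threshold, and after quantile normalization it did not pass (-1.20, adjusted p = 0.0506). When every probe set of the table was tested without a filter its adjusted p was 0.0530. Without DNMTs-Tg replicate 1 the difference was -0.86 and passed (adjusted p = 0.00658).

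Each of these 3 calls depended on which array was left out. The share called over all genes, 5.39% in the full fit, moved with the array as well. It was 7.83% and 11.8% without DNMTs-Tg replicate 1 and 6, and 0.902% to 1.48% without each of the other arrays. Slc25a10, Slc25a11 and Slc25a34 kept their direction in all 6 fits with 1 array left out. They passed without DNMTs-Tg replicate 1 or 6. They did not pass without DNMTs-Tg replicate 5 (adjusted p = 0.0859, 0.0989 and 0.111, in that order of genes). Nor did they pass without wild-type replicate 1 (adjusted p = 0.113, 0.140 and 0.164), wild-type replicate 4 (adjusted p = 0.0967, 0.133 and 0.156) or wild-type replicate 6 (adjusted p = 0.0901, 0.130 and 0.136).

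**Figure D2:**
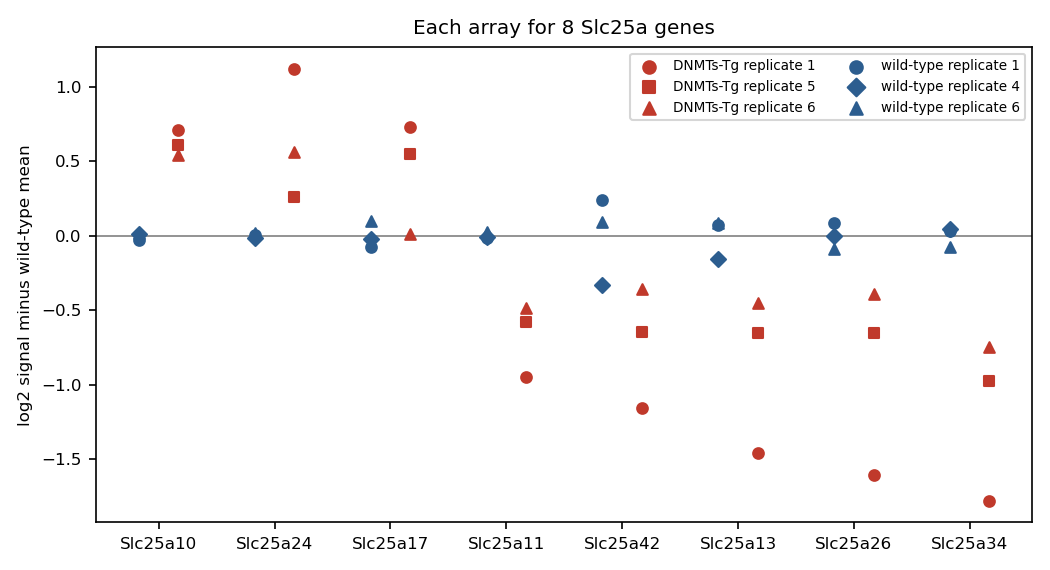
Log2 signal of 8 Slc25a genes on each of the 6 arrays, minus the mean of the 3 wild-type arrays, with DNMTs-Tg in red and wild-type in blue and a symbol for each replicate number. In all 8 genes DNMTs-Tg replicate 1 (red circle) lies farthest from 0, as for Slc25a34 at -1.78 beside -0.97 and -0.75 in replicates 5 and 6. In Slc25a17 replicate 6 lies at 0.01 among the wild-type hearts. The 8 genes are a selection. Over all 40 measured members replicate 1 lay farthest among the DNMTs-Tg hearts for 26 (65%), against 56.5% of all genes.

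The study's question concerns silencing by DNA methylation, so the 250 bases before the RefSeq start of these 3 genes are shown, with each CpG in capitals, as the sites a DNA methyltransferase could modify. Sequences and coordinates are from RefSeq on GRCm38.p6 and run 5′ to 3′ on the gene's strand. The Slc25a10 stretch is chr11:120491587-120491836 on the plus strand. The Slc25a11 stretch is chr11:70647040-70647289 on the minus strand, and lies inside the outermost gene model, which begins 492 bases upstream of this start. The Slc25a34 stretch is chr4:141623835-141624084 on the minus strand, with an outermost gene model that begins 57 bases upstream of this start.
Slc25a10: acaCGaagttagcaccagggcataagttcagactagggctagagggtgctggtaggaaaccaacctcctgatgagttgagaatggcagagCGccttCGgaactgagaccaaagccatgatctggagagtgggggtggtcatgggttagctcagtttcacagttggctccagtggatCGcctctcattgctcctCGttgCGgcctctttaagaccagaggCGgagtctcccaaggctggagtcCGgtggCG
Slc25a11: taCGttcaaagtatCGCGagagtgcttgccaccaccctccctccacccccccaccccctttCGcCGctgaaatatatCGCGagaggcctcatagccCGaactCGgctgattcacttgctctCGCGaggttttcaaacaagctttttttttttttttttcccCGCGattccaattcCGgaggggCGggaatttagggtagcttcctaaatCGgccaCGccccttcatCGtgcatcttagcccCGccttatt
Slc25a34: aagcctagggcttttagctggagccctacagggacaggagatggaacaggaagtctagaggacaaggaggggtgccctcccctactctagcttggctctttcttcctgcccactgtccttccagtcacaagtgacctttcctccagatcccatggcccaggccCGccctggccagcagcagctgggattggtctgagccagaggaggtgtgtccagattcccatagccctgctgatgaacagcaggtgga

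The stretches held 9 CpG for Slc25a10, 19 for Slc25a11 and 1 for Slc25a34. The 2 genes that fell thus had the most and the fewest CpG of the 3. In the full windows, which add the 50 bases from the start onward, the counts were 15, 24 and 1. Of 32851 such windows in the table, 34.6% had at least 15 CpG, 20% at least 24 and 94.6% at least 1. A window was found for 31 of the 40 measured members, in 40 windows that held 1 to 51 CpG with a median of 16.5, against a median of 7 over all windows. Slc25a34 was the 1 member with a window of at most 5 CpG, as 43.6% of all windows had. Its window also held the letters AAGGTCA, on the reverse strand. This half-site is bound by several nuclear receptors, oestrogen-related receptors among them, and the letters alone do not tell which. It was searched on both strands and was present in 4.72% of all windows and in 1 of the 40 member windows. These counts describe the sequence, and no methylation was measured at any of these sites.

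The carriers of ATP supply did not pass as genes. Slc25a4, the ADP/ATP carrier of heart and skeletal muscle, stood at 14.57, 14.64 and 14.58 in DNMTs-Tg replicates 1, 5 and 6 by its brightest probe set, and at 14.51, 14.51 and 14.53 in wild-type replicates 1, 4 and 6. The DNMTs-Tg hearts lay slightly above, by 0.08 ± 0.06 (SE, n = 3 per group; limma, adjusted p = 0.465, 95% interval -0.07 to 0.23). That probe set ranked 3 to 10 in brightness on its array and lay 0.04 to 0.22 below the brightest of all, and whether the scale is compressed there was not tested.

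The other probe sets of Slc25a4 did not all give that picture. The third brightest stood at 12.64, 12.58 and 12.21 in DNMTs-Tg replicates 1, 5 and 6 and at 11.60, 11.74 and 11.80 in wild-type replicates 1, 4 and 6. It rose by 0.76 ± 0.13 (SE, n = 3 per group; limma over 45037 probe sets, adjusted p = 0.0305). The 2 remaining probe sets differed by 0.49 (adjusted p = 0.196) and 0.08 (adjusted p = 0.554). All 4 lay above 0, and the mean of the 4 differences was 0.35. For the third brightest, the difference was 0.68 to 0.89 with 1 array left out and passed in 2 of those 6 fits, without DNMTs-Tg replicate 1 or 6. Without DNMTs-Tg replicate 5, wild-type replicate 1, wild-type replicate 4 or wild-type replicate 6 it did not pass, with adjusted p up to 0.148.

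Over all 93 probe sets tested without a filter, 3 passed, 2 higher (Slc25a10 and Slc25a4) and 1 lower (Slc25a11). Over all probe sets 2.11% passed, 0.799% higher and 1.31% lower. An unadjusted p under 0.05 was seen for 18 of the 93, while 19.2% of all probe sets had one. Of the 93 differences 48 lay below 0.

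Slc25a5, the widely expressed ADP/ATP carrier on the X chromosome, was measured by 8 probe sets. The brightest stood at 13.04, 12.99 and 12.80 in DNMTs-Tg and 13.00, 12.95 and 13.01 in wild-type hearts, and the groups overlapped (-0.04, adjusted p = 0.789, 95% interval -0.25 to 0.17). Of its 8 probe sets 4 lay above 0 and 4 below, from -0.25 to 0.32, and 6 have the suffix x, whose probes can bind related transcripts. Slc25a3 imports the phosphate used for ATP synthesis. It stood at 13.34, 13.71 and 13.80 in DNMTs-Tg replicates 1, 5 and 6 and at 13.72, 13.76 and 13.72 in wild-type replicates 1, 4 and 6. Only DNMTs-Tg replicate 1 was clearly lower, and the difference of -0.12 (adjusted p = 0.586, 95% interval -0.41 to 0.18) became 0.02 without it.

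**Figure D3:**
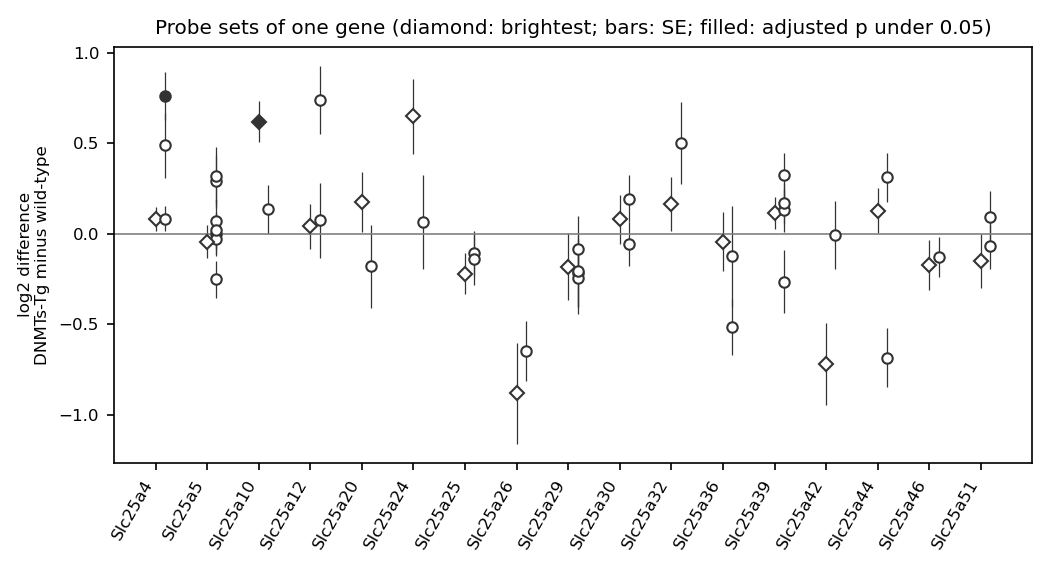
Log2 difference, DNMTs-Tg minus wild-type, of every kept probe set of the 17 Slc25a genes with more than 1, with the SE as bars (n = 3 per group), diamonds for the brightest probe set and filled symbols for adjusted p under 0.05 among all probe sets. The probe sets of Slc25a4 spread from 0.08 to 0.76 and those of Slc25a44 from -0.69 to 0.31.

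For 17 measured members more than 1 probe set was kept. In 11 of them all kept probe sets had the same sign. The probe sets of Slc25a5, Slc25a20, Slc25a30, Slc25a39, Slc25a44 and Slc25a51 differed in sign, so for these 6 genes the direction depends on the probe set. Among the 93 probe sets 14 carry the suffix x and 4 the suffix s, 2 marks of probes that several transcripts can share.

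The ATP-Mg carriers, some of them regulated by calcium, exchange ATP-Mg for phosphate and so adjust the adenine nucleotide pool of the matrix. None of 4 measured members passed. Slc25a24 stood at 8.997, 8.14 and 8.44 in DNMTs-Tg replicates 1, 5 and 6 and at 7.88, 7.86 and 7.89 in wild-type replicates 1, 4 and 6. All DNMTs-Tg hearts lay above the tight wild-type group, with replicate 1 the highest. The difference of 0.65 ± 0.21 (SE, n = 3 per group) had a limma adjusted p of 0.118, and it was 0.41 without DNMTs-Tg replicate 1. A second probe set differed by 0.06. Slc25a25 stood at 7.45, 7.59 and 7.60 in DNMTs-Tg and 7.73, 7.80 and 7.77 in wild-type hearts, without overlap (-0.22, adjusted p = 0.222). Slc25a23 (0.11) and Slc25a41 (-0.14) had overlapping groups.

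Carriers of aspartate and glutamate included members of the malate-aspartate shuttle. Slc25a13 (citrin), the aspartate-glutamate carrier best known from liver, stood at 9.40, 10.21 and 10.41 in DNMTs-Tg replicates 1, 5 and 6. In wild-type replicates 1, 4 and 6 it stood at 10.93, 10.71 and 10.95, so the groups did not overlap. The difference was -0.86 ± 0.25 (SE, n = 3 per group) and did not pass (limma, adjusted p = 0.0956). With 1 array left out it passed in 2 of 6 fits. These were the fits without DNMTs-Tg replicate 1 (-0.55, limma adjusted p = 0.0337) and without DNMTs-Tg replicate 6 (-1.06, limma adjusted p = 0.0403). In the others it did not pass, with limma adjusted p up to 0.256. Slc25a12 (aralar), the isoform of heart and brain, differed by 0.04 by its brightest probe set (adjusted p = 0.860, 95% interval -0.24 to 0.33), and its groups overlapped there. A much dimmer kept probe set of Slc25a12 stood at 5.87, 5.51 and 5.30 in DNMTs-Tg and 5.06, 4.82 and 4.58 in wild-type hearts, without overlap (0.74, adjusted p = 0.0913 among all probe sets). The mean difference of its 3 kept probe sets was 0.29. Slc25a22, which imports glutamate with a proton, stood at 8.06, 9.03 and 9.09 in DNMTs-Tg and 9.14, 9.07 and 9.38 in wild-type hearts. Only DNMTs-Tg replicate 1 lay far below, and the difference was -0.47 with it and -0.14 without it (adjusted p = 0.314 and 0.517).

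The 4 enzymes of the malate-aspartate shuttle, Got1, Got2, Mdh1 and Mdh2, had differences of -0.23 to -0.15 and a median of -0.19. None passed, and those with the smallest p were Mdh2 (-0.17, adjusted p = 0.198) and Got2 (-0.15, adjusted p = 0.380). Their mean over the 4 stood at -0.42 in DNMTs-Tg replicate 1 and at -0.05 and -0.10 in replicates 5 and 6, relative to the wild-type mean. Slc25a11, in the same hearts, stood at -0.95, -0.58 and -0.48.

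Other amino acid carriers gave no call among 4 measured members. Slc25a38 imports glycine for the first step of haem synthesis. It stood at 7.48, 7.80 and 8.04 in DNMTs-Tg replicates 1, 5 and 6 and at 8.26, 8.46 and 8.04 in wild-type replicates 1, 4 and 6. DNMTs-Tg replicate 6 reached the lowest wild-type heart without passing it, and the difference was -0.48 ± 0.18 (SE, n = 3 per group; limma, adjusted p = 0.152). Slc25a44, a carrier of branched-chain amino acids, stood at 7.85, 7.84 and 7.57 in DNMTs-Tg and 7.63, 7.62 and 7.62 in wild-type hearts (0.13, adjusted p = 0.523). Another of its probe sets differed by -0.69 (adjusted p = 0.0782 among all probe sets), and its groups did not overlap. Slc25a15, which exchanges ornithine and citrulline for the urea cycle, differed by 0.07, and Slc25a29, a carrier of basic amino acids, by -0.18.

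Slc25a20, the carnitine-acylcarnitine carrier, brings long-chain acyl groups into the matrix for oxidation. It stood at 11.24, 11.65 and 11.87 in DNMTs-Tg replicates 1, 5 and 6 and at 11.47, 11.24 and 11.52 in wild-type replicates 1, 4 and 6. The groups overlapped, with a difference of 0.17 (adjusted p = 0.552, 95% interval -0.23 to 0.58). Its second probe set lay at -0.18. Cpt2, the enzyme that acts next in the matrix, stood at 10.72, 11.63 and 12.31 in DNMTs-Tg replicates 1, 5 and 6 and at 12.15 to 12.23 in wild-type hearts (-0.63, adjusted p = 0.297). Slc25a20 and Cpt2 were thus both lowest in replicate 1 and highest in replicate 6 among the DNMTs-Tg hearts. This order was not particular to them, as Slc25a11, Slc25a13, Slc25a26 and Slc25a34 also had it, while Slc25a10 had the reverse. Cpt1a stood at 8.64, 8.16 and 8.23 in DNMTs-Tg replicates 1, 5 and 6, highest in replicate 1.

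Cofactor and glutathione carriers had 8 measured members, 4 above 0 and 4 below, and 0 passed in the limma fit, with 2 at an unadjusted p under 0.05. Slc25a26 imports S-adenosylmethionine, the methyl donor of methyltransferases, into mitochondria. It stood at 7.78, 8.73 and 8.99 in DNMTs-Tg replicates 1, 5 and 6 and at 9.47, 9.38 and 9.29 in wild-type replicates 1, 4 and 6. All DNMTs-Tg hearts lay below all wild-type hearts, and the difference was -0.88 ± 0.29 (SE, n = 3 per group; limma, adjusted p = 0.121). Its second kept probe set also lay lower without overlap, by -0.65 (adjusted p = 0.0918 among all probe sets). The first probe set passed without DNMTs-Tg replicate 1 (-0.52, adjusted p = 0.0458) or replicate 6 (-1.13, adjusted p = 0.0465). In the others of the 6 fits with 1 array left out it did not pass, with limma adjusted p up to 0.295.

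Slc25a42, which imports coenzyme A, stood at 7.05, 7.56 and 7.85 in DNMTs-Tg and at 8.45, 7.88 and 8.30 in wild-type hearts. The groups came within 0.03 of each other without overlap, between DNMTs-Tg replicate 6 and wild-type replicate 4. The difference was -0.72 ± 0.24 (SE, n = 3 per group; limma, adjusted p = 0.119), and a dimmer probe set of the gene differed by -0.01. Slc25a17, a carrier of peroxisomes rather than mitochondria, differed by 0.43 (adjusted p = 0.208). It stood at 7.73 and 7.55 in DNMTs-Tg replicates 1 and 5 and at 7.01 in replicate 6, within the wild-type range of 6.93 to 7.10. It passed in only 1 of the 6 fits with 1 array left out, that without DNMTs-Tg replicate 6. Slc25a16, tied to coenzyme A, differed by -0.20, the NAD carrier Slc25a51 by -0.15, the folate and FAD carrier Slc25a32 by 0.16 (0.50 by its second probe set), and the glutathione carriers Slc25a39 and Slc25a40 by 0.11 and 0.02.

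Carriers of pyrimidine nucleotides, which feed synthesis of mitochondrial DNA and RNA, had overlapping groups by their brightest probe sets. Slc25a33 stood at 9.26, 9.38 and 10.09 in DNMTs-Tg and 9.68, 9.51 and 9.03 in wild-type hearts (0.17, adjusted p = 0.712). Slc25a36 stood at 9.96, 9.80 and 9.53 in DNMTs-Tg and 9.53, 9.86 and 10.02 in wild-type hearts (-0.04, adjusted p = 0.889). The sign of both turned when single arrays were left out. All 3 kept probe sets of Slc25a36 lay below 0, with a mean difference of -0.23. One of the dimmer ones stood at 6.64, 6.87 and 6.39 in DNMTs-Tg and 7.02, 7.18 and 7.24 in wild-type hearts, without overlap (-0.52, adjusted p = 0.131 among all probe sets).

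The mitoferrins bring iron into the matrix for haem and iron-sulphur clusters, Slc25a37 chiefly in developing red cells and Slc25a28 more widely. Slc25a37 varied more than any other measured member within the DNMTs-Tg group, with an SD of 0.87 (n = 3). It stood at 8.16, 7.37 and 9.11 in DNMTs-Tg replicates 1, 5 and 6 and at 8.29, 7.40 and 7.51 in wild-type replicates 1, 4 and 6. The groups overlapped (0.48 ± 0.44, SE; limma, adjusted p = 0.528). Alas2, the haem synthesis enzyme of red cells, stood at 1.07, -1.58 and 2.06 from its wild-type mean in the same DNMTs-Tg hearts and at 1.14, -0.53 and -0.61 in the wild-type hearts. Slc25a37 stood at 0.42, -0.37 and 1.37, and at 0.56, -0.33 and -0.23. Both genes were thus highest in DNMTs-Tg replicate 6 and lowest in DNMTs-Tg replicate 5. Of the 6 erythroid markers 2, Alas2 and Slc4a1, had a kept probe set, and their summed level ran from 6.73 to 10.15 in DNMTs-Tg and from 7.66 to 9.21 in wild-type. Their part in the Slc25a37 values was not tested. Slc25a28 stood at 8.23, 8.41 and 8.47 in DNMTs-Tg and 8.37, 8.26 and 8.12 in wild-type hearts (0.12, adjusted p = 0.560).

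**Figure D4:**
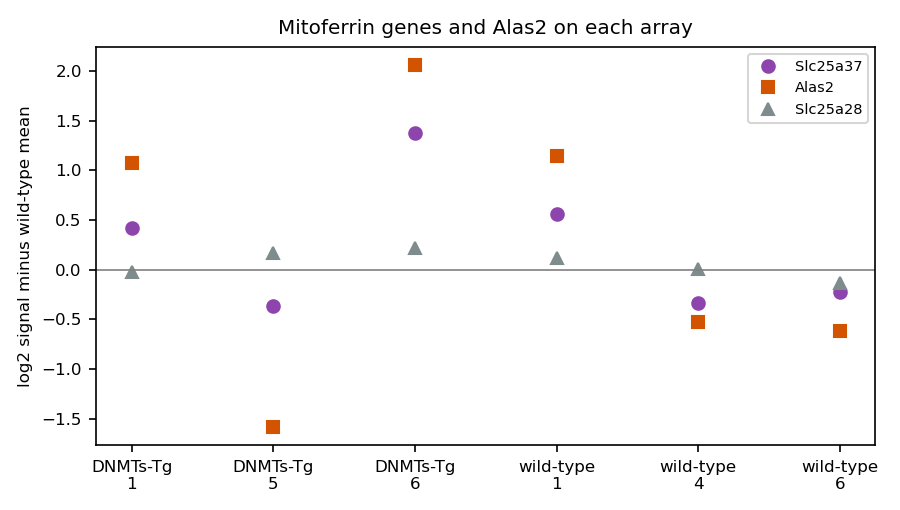
Log2 signal of the mitoferrin genes Slc25a37 and Slc25a28 and of the red cell gene Alas2 on each array, minus the mean of the 3 wild-type arrays. Slc25a37 and Alas2 are highest in DNMTs-Tg replicate 6 (1.37 and 2.06) and lowest in DNMTs-Tg replicate 5 (-0.37 and -1.58), while Slc25a28 stays near 0.

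Carriers related to the uncoupling proteins, whose transport is less well defined, did not pass. Slc25a27 stood at 5.90, 5.19 and 5.30 in DNMTs-Tg and 5.30, 5.16 and 5.18 in wild-type hearts (0.25, adjusted p = 0.455), with only DNMTs-Tg replicate 1 apart. Slc25a30 stood at 8.15, 7.83 and 7.84 in DNMTs-Tg and 7.96, 7.78 and 7.85 in wild-type hearts (0.08, adjusted p = 0.731). Slc25a14, on the X chromosome, differed by 0.03 (adjusted p = 0.926). On the array with the female pattern, wild-type replicate 4, the X-linked members Slc25a5, Slc25a14 and Slc25a53 stood at -0.04, 0.22 and -0.13 from the wild-type mean.

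Beside Slc25a34, the group of orphan or outer membrane members had 6 further measured genes, and none of them passed. Slc25a35, a close relative of Slc25a34, differed by -0.41 (adjusted p = 0.224), with wild-type replicate 4 at 6.06 among the DNMTs-Tg values of 5.82 to 6.23. Slc25a47, known from liver, stood at 5.88, 6.17 and 6.06 in DNMTs-Tg and 6.34, 6.36 and 6.23 in wild-type hearts, without overlap (-0.28, adjusted p = 0.201). Slc25a45 differed by 0.35 (adjusted p = 0.219). Slc25a46, which sits in the outer membrane and takes part in mitochondrial fission, differed by -0.17. Slc25a48 and Slc25a53 differed by 0.11 and -0.09.

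The DNMTs-Tg hearts did not contribute equally. DNMTs-Tg replicate 1 was the farthest of the 3 from the wild-type mean for 26 of the 40 members (65%), as it was for 56.5% of all genes. The median absolute distance of the members from the wild-type mean was 0.31, 0.17 and 0.19 in DNMTs-Tg replicates 1, 5 and 6, and that of all genes was 0.32, 0.20 and 0.18. The signed median of the members was -0.14, -0.02 and -0.0041 in the same hearts, beside -0.01, -0.0039 and 0.02 for all genes, so on replicate 1 the members lay lower than genes in general by this measure. The difference between members and all genes was not tested. The summed fibroblast markers stood at 13.64 to 14.26 in DNMTs-Tg and 13.60 to 13.76 in wild-type, and the summed macrophage markers at 11.39 to 12.71 and 11.56 to 11.84, each highest in DNMTs-Tg replicate 1. Of 4 neutrophil markers 2 were measured, S100a8 and S100a9. Both rose (limma, adjusted p = 0.0221 and 0.0336), with a summed level of 8.29 to 8.96 in DNMTs-Tg and 6.04 to 7.42 in wild-type. In DNMTs-Tg replicate 1 the 7 cardiomyocyte markers averaged 0.38 below the wild-type mean, against 0.12 and 0.05 below in replicates 5 and 6, and the part of these cell types in the carriers' values was not tested. The direction of 28 members was the same in all 6 fits with 1 array left out, and for 12 it turned in at least 1.

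Genes of carrier import, of other mitochondrial transport and of the malate-aspartate shuttle were looked at by lists. Ucp3, Mtch1 and Mtch2 were counted here and not as members, because their symbols do not start with Slc25a. Of 46 listed genes 39 were measured, and 3 passed (7.69%, against 5.39% of all genes tested). The route that inserts carriers into the inner membrane runs from the outer membrane receptors to the TIM22 complex. It had 11 of 11 genes measured, with a median difference of 0.05. Of these 1 was called higher (9.09%, against 2.24% of all genes tested). Tomm20, an import receptor of the outer membrane, stood at 13.09, 13.11 and 12.94 in DNMTs-Tg and 12.67, 12.64 and 12.62 in wild-type hearts and rose by 0.40 ± 0.08 (SE, n = 3 per group; limma, adjusted p = 0.0379). Tomm70a, the receptor that binds carrier precursors, differed by 0.34 (adjusted p = 0.167), and Timm22, the channel of the insertion complex, by 0.31 (adjusted p = 0.104). The route did not move in 1 direction, with 6 of the 11 genes above 0 and 5 below. Timm8b and Agk both differed by -0.26 without overlap (adjusted p = 0.120 and 0.209).

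Among other mitochondrial transport genes 24 were measured, with a median of -0.09. Of these 17 lay below 0 (70.8%, against 49.2% of all genes tested). The 2 that passed were both lower (8.33%, against 3.15% of all genes called lower). Sfxn4, a sideroflexin, stood at 6.05, 6.31 and 6.51 in DNMTs-Tg and 7.37, 7.63 and 7.36 in wild-type hearts and fell by 1.16 ± 0.15 (SE, n = 3 per group; limma, adjusted p = 0.0109). Ppif, cyclophilin D, a regulator of the permeability transition pore, stood at 9.63, 10.27 and 9.92 in DNMTs-Tg and 10.76, 10.66 and 10.83 in wild-type hearts and fell by 0.81 ± 0.16 (adjusted p = 0.0383). Tomm20 and Ppif did not pass with the mean of their probe sets, nor Tomm20 without a trend in the variance model. None of the 3 passed without wild-type replicate 1 or wild-type replicate 4. Sfxn4 alone passed without wild-type replicate 6, and Ppif alone without DNMTs-Tg replicate 5.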

How the data were processed

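Each of the 6 arrays has 1 log2 signal per probe set, a scale read from the range of the values the authors deposited. How the background was corrected and the arrays normalized is not given in the sources used here. The deposited values were taken unchanged. The 64 control probe sets were dropped. Gene identifiers linked 34741 of the 34945 probe sets with 1 symbol to current GRCm38.p6 names, and 1 probe set that lists an Slc25a gene among several was left out. limma 3.58.1 (R 4.3.3) was run with lmFit and a trended eBayes, 2-sided, with Benjamini-Hochberg adjustment over all 13634 genes, and in a second fit over all 45037 probe sets without a filter. With 3 arrays a group precision is limited, and exact permutation p cannot fall below 0.1. The code was tested on simulated data.

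Array values are given for members past the threshold and, in each substrate group, for the 2 with the smallest p (1 where the group has 1). In the other lists the genes past the threshold are named, and otherwise the 2 with the smallest p. Further values, such as those of Slc25a17, Slc25a12, Slc25a35, Tomm70a, Timm22, Timm8b, Agk, Cpt1a, Cpt2, Alas2 and Adipoq, were chosen after they were seen. The family, its substrate groups and the lists were chosen with earlier results of these data known. The alternatives covered normalization, the filter, the probe set rule, the variance model, weights per array, a replicate block from the label numbers, the threshold and each array left out. Counts of CpG and AAGGTCA were made with Python on the RefSeq promoter table.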

Additional observations from a re-analysis of the deposited data

How the results depend on the processing

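The count of called Slc25a genes, 3 as reported, was 2 to 4 under 9 of 11 alternatives. Array weights gave 11 called genes, when 35.4% of all genes were called, and the cause was not tested. With the label number as a replicate block there were 0 called genes in the limma fit, with 7 members at unadjusted p under 0.05 and 1 call over all genes. That fit left 1 residual degree of freedom. Its group differences rest on the numbers 1 and 6 alone, because 4 and 5 each occur in 1 group only. The numbers 1 and 6 occur in both groups, and they were not taken as pairs. Deviations of equal numbers correlated by -0.054 and -0.08 over genes, and those of unequal numbers by -0.072 to 0.113. As deviations from means of 3 arrays these are tied to one another. They cannot show whether equal numbers were pairs. With 1 array left out the called genes ranged from 0 to 6, the called probe sets from 0 to 8 and the called genes of the other lists from 0 to 4, and fewer arrays were fitted. In the same fits the share called over all genes ranged from 0.902% to 11.8%, so these counts moved with the whole table. The 3 called probe sets became 14 with array weights, 0 with the replicate block and 8 at the threshold of 0.1. The 3 called genes of the other lists became 1 with the mean of kept probe sets, 16 with array weights and 0 with the replicate block. Among members given with their values on every array by the naming rule, these changed sign, all without a call. With the mean of kept probe sets Slc25a20 stood at -0.0031 and Slc25a44 at -0.083, and outside that rule Slc25a5 at 0.046. With array weights Slc25a27 stood at -0.020, Slc25a30 at -0.042, Slc25a33 at -0.059, Slc25a36 at 0.049 and Slc25a37 at -0.37. With 1 array left out Slc25a3 ranged from -0.21 to 0.022, Slc25a30 from -0.026 to 0.13, Slc25a33 from -0.090 to 0.33 and Slc25a36 from -0.18 to 0.071. Slc25a5, Slc25a12, Slc25a14, Slc25a15, Slc25a23, Slc25a29, Slc25a40 and Slc25a48 also turned in at least 1 such fit. The cause of these changes was not tested. The count of members below 0 was 18 to 23 and their median -0.04 to -0.0017 over all settings. Signal over background is unknown for dim probe sets.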
